A study of Mus musculus with 3 samples.

Results

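The interferon regulatory factors and STAT proteins examined here were 9 transcription factor genes, chosen by name: Irf1, Irf2, Irf4, Irf5, Irf7, Irf8, Irf9, Stat2 and Stat3. They were 9 of the 22238 genes listed in all 3 libraries, and each had more than 3 reads and a level over 3 TPM in every library, so none was left out. TPM is a level of transcripts per effective length, as a share of a fixed sum, and the sum was set here over the common genes of each library.

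Interferon regulatory factors (IRFs) share a DNA-binding domain that recognizes GAAA repeats, and in myeloid cells they carry signals from interferon receptors and pattern recognition receptors to genes of defence and antigen presentation. Type I interferon causes STAT2 and IRF9 to act together in the complex ISGF3, which binds the interferon-stimulated response element. STAT dimers bind another element, the gamma-activated site, and IRF1 is a classical product of interferon gamma signalling. STAT3 carries signals of the IL-6 and IL-10 families, while IRF4, IRF5 and IRF8 are known for their parts in the differentiation and activation of monocytes, macrophages and dendritic cells.

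The cells came from female C57BL/6J mice, 10 to 12 weeks old, with no genetic alteration named in the labels. In all of them experimental autoimmune encephalomyelitis (EAE) had been induced with a peptide of myelin oligodendrocyte glycoprotein in complete Freund's adjuvant, and 250 ng of pertussis toxin was given 2 and 24 h later. Cells were sorted on days 14 to 15, and the study had no unimmunized library among the 3. Bone marrow monocytes, sorted as Ly6Chi CD11b+ CD45+ cells without Ly6G and CD11c, were pooled from 13 mice of 2 experiments. From the spinal cord, monocytes were sorted as Ly6Chi and monocyte-derived antigen-presenting cells (APCs) as Ly6Clow/- among CD64+ CD11b+ CD45+ cells without Ly6G. Each was pooled from 18 mice of 3 experiments, so the gates separate them by their Ly6C level alone. One label of the APC library names the bone marrow as its source, whereas its title and tissue label name the spinal cord, which was followed.

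Each population was 1 library, so no p-value is given, and every interval below covers counting error only. A change was called where the 98% interval of the fold change, from the reads of both libraries, lay wholly beyond 2-fold and the level was over 3 TPM in at least 1 of them (an active gene). Total estimated reads were between 27283795 and 33280643, and the members had between 345 and 19653 reads each. The monocyte libraries list 54432 genes and the APC library 22242, so its reads were assigned to another transcript set, and levels set across that difference depend on it. For this reason each fold change was also computed from reads divided by effective length. Fold changes were scaled by the median ratio of genes with reads in all 3 libraries, and TPM to a fixed sum. The median active gene was still at -0.15 in the step from bone marrow to spinal cord monocytes. Small changes can differ in sign between fold changes and TPM, as they did for Irf5 and Irf9 in that first step. Irf1, Irf2, Irf5, Irf7 and Stat3 overlap models on the opposite strand by 45 to 1723 bases, and Irf9 overlaps Rnf31 on its own strand by 123 bases, where reads may not be told apart. Where 3 values follow each other below without further words, the order is the bone marrow library, the spinal cord monocyte library and the APC library. The labels were checked against marker genes. The 8 monocyte markers summed to 11135, 9631 and 3948 TPM. Of these, 2 were called higher and 1 lower in the first step, and 0 higher and 3 lower (2 with length correction) in the second. Among them Ly6c2, a gene of the Ly6C marker used for sorting, was at 5205, 3602 and 1067 TPM, whereas Csf1r was at 374, 676 and 1134 TPM. The 8 microglia markers summed to 13.8, 157 and 418 TPM in these libraries, the 10 T cell markers to 0.877, 80.8 and 120 TPM, and the 12 neutrophil and granulocyte precursor markers to 8342, 1255 and 1315 TPM. Thus both spinal cord libraries held transcripts of genes that mark microglia and T cells. Most of the neutrophil and granulocyte precursor sum in bone marrow came from S100a8 at 4471, S100a9 at 2244 and Mmp8 at 707 TPM. The precursor genes Elane, Mpo, Prtn3 and Ctsg were at 172, 69.6, 329 and 59.5 TPM in that library, and each was lower in both spinal cord libraries. According to the study, the spinal cord gate on high CD45 was meant to leave out microglia, that on CD64 conventional dendritic cells and that on Ly6G neutrophils, and CD11b is not a marker of most T cells. From Tmem119 the study estimated a small share of microglia in the APC population. It judged contamination by conventional dendritic cells unlikely because Zbtb46 was very low. In such bulk libraries, fewer cells of a type and less RNA per cell cannot be told apart.

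From bone marrow monocytes to spinal cord monocytes, 3 of the 9 members were called higher (Irf1, Irf7 and Stat2) and 0 lower. Among all 10072 active genes of that comparison, 13.8% were called higher and 10.7% lower. From spinal cord monocytes to APCs, 1 of 9 was called higher (Irf4) and 0 lower, where 1.93% of 9734 active genes were called higher and 1.70% lower. Between APCs and bone marrow monocytes, 3 of 9 were called higher (Irf1, Irf4 and Irf7) and 0 lower, against 14.0% and 11.8% of 10190 active genes. The 3 comparisons share libraries and are not independent. The other members, Irf2, Irf5, Irf8, Irf9 and Stat3, were called in none of them, and their log2 fold changes in the 2 successive steps lay between -0.59 and 0.56. The neutrophil and granulocyte precursor markers were called lower in the first step in 10 of 11 active genes, and the microglia markers higher in 7 of 7. Only 1 microglia marker was over 3 TPM in bone marrow monocytes, so the others passed the filter only through the spinal cord library. The part of microglia, neutrophils and granulocyte precursors in the members' values was not tested.

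**Figure D1:**
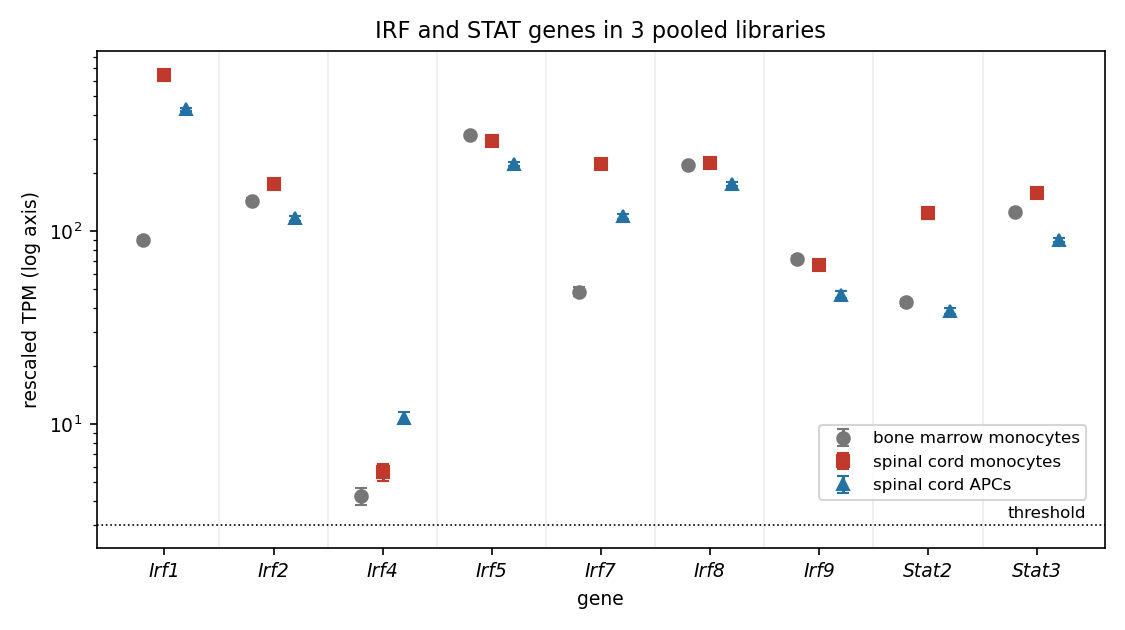
Rescaled TPM (log axis) of each member, with circles for the bone marrow library, squares for spinal cord monocytes and triangles for spinal cord APCs, 1 pooled library each, with 95% Wilson intervals that cover counting error only. Irf1 is highest in spinal cord monocytes at 650 TPM, and Irf4 is the lowest member in every library, between 4.23 and 10.8 TPM; the dotted line is the threshold of 3 TPM.

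The summed level of the 7 IRF genes was 899, 1642 and 1122 TPM. In bone marrow monocytes Irf5 supplied 35.3% of this sum, followed by Irf8 with 24.7% and Irf2 with 16.1%. Among spinal cord monocytes Irf1 supplied 39.6%, followed by Irf5 with 17.9%, Irf8 with 13.8% and Irf7 with 13.6%. The first place in APCs was again taken by Irf1, with 38.3% of the sum. The leading IRF transcript thus differed between bone marrow (Irf5) and spinal cord (Irf1), and the order Irf1, Irf5, Irf8, Irf7, Irf2, Irf9 and Irf4 was the same in both spinal cord libraries. In spinal cord monocytes the levels of Irf7 and Irf8, 224 and 227 TPM, had overlapping 95% intervals (218 to 229 and 223 to 231), and in APCs those of Irf2 and Irf7 did as well (113 to 120 and 116 to 123).

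Irf1 encodes an activator of interferon-inducible genes and of antigen processing genes, and it showed the greatest fold change of the 9 members. The gene lies on chr11:53770014-53778374 (GRCm38, plus strand) and is listed as ENSMUSG00000018899.16. Its level was 90.5 TPM in bone marrow monocytes (3414 reads), and it was 650 TPM (19653 reads) and 429 TPM (12118 reads) in the monocytes and APCs of the spinal cord. Both spinal cord libraries thus lay well above the bone marrow library. Among the 22238 genes it ranked 1704, 268 and 346. The first step was an 8.04-fold increase, log2 fold change 3.01 (98% interval 2.94 to 3.07), and the value from length-corrected reads was 3.09. The second step was -0.85 (-0.89 to -0.82) and did not reach a call. With length correction it was -0.52, so the direction held while the size depended on the scale. In APCs Irf1 thus stayed above bone marrow monocytes, by 2.15 (2.09 to 2.22) on the log2 scale.

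Irf2 encodes a factor that binds the same elements as IRF1 and is best known for opposing it. Its level was 144, 176 and 117 TPM (4723, 4970 and 4775 reads). The first step was 0.56 (0.49 to 0.62) and the second -0.21 (-0.28 to -0.15), both inside 2-fold. The ratio of Irf1 to Irf2, in TPM, was 0.627 (95% interval 0.600 to 0.655) in the bone marrow library, and in the spinal cord it was 3.70 (3.58 to 3.81) for monocytes and 3.68 (3.56 to 3.81) for APCs. Irf2 transcripts therefore exceeded those of Irf1 in the bone marrow library only. In TPM the ratio did not differ beyond counting error between the spinal cord libraries. From reads alone the same ratio was 3.95 and 2.54 there, so whether it differed depended on effective length. Between the monocyte and the APC library of the spinal cord, the effective length of Irf2 went from 1459 to 1964 bases and that of Irf1 from 1561 to 1354.

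The promoters of the members were searched for letters of the elements that these factors bind, within 250 bases before and 50 after a transcription start (RefSeq, GRCm38.p6; all 9 members matched, with 12 starts). The letters searched on both strands were TTCNNNGAA for a gamma-activated site (GAS), GAAANNGAAA for an interferon-stimulated response element (ISRE) and GGAANNGAAA for an Ets-IRF composite element (EICE), which IRF4 and IRF8 bind together with PU.1. Of 27025 genes with promoters of this length, 9.55% held the GAS letters before or after at least 1 start, 3.99% those of the ISRE, 3.16% those of the EICE and 15.4% at least 1 of these. Matches were found for 4 of the 9 members, Irf1, Irf2, Irf8 and Stat2. The stretches around them are written 5′ to 3′ on the plus strand, on which all 4 genes lie, with the matches in capitals, and they show which member carries which element.
Irf1, chr11:53769909-53769947: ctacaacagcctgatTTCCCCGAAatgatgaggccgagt
Irf2, chr8:46739495-46739544: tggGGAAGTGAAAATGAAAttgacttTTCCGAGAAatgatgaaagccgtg
Irf8, chr8:120736172-120736228: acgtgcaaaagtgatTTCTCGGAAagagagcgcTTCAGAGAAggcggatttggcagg
Stat2, chr10:128270261-128270306: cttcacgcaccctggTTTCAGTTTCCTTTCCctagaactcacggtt
The Irf1 stretch holds 1 GAS match, which starts 90 bases before the transcription start. The Irf2 stretch holds an EICE match at 247 bases that overlaps an ISRE match at 241, and then a GAS match at 224 bases. The Irf8 stretch holds 2 GAS matches, at 171 and 153 bases. The Stat2 stretch holds an ISRE match at 222 bases overlapping an EICE match at 216, both on the minus strand, so the printed letters are their complement read backwards. These letters were not in the windows of Irf4, Irf5, Irf7, Irf9 and Stat3.

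**Figure D2:**
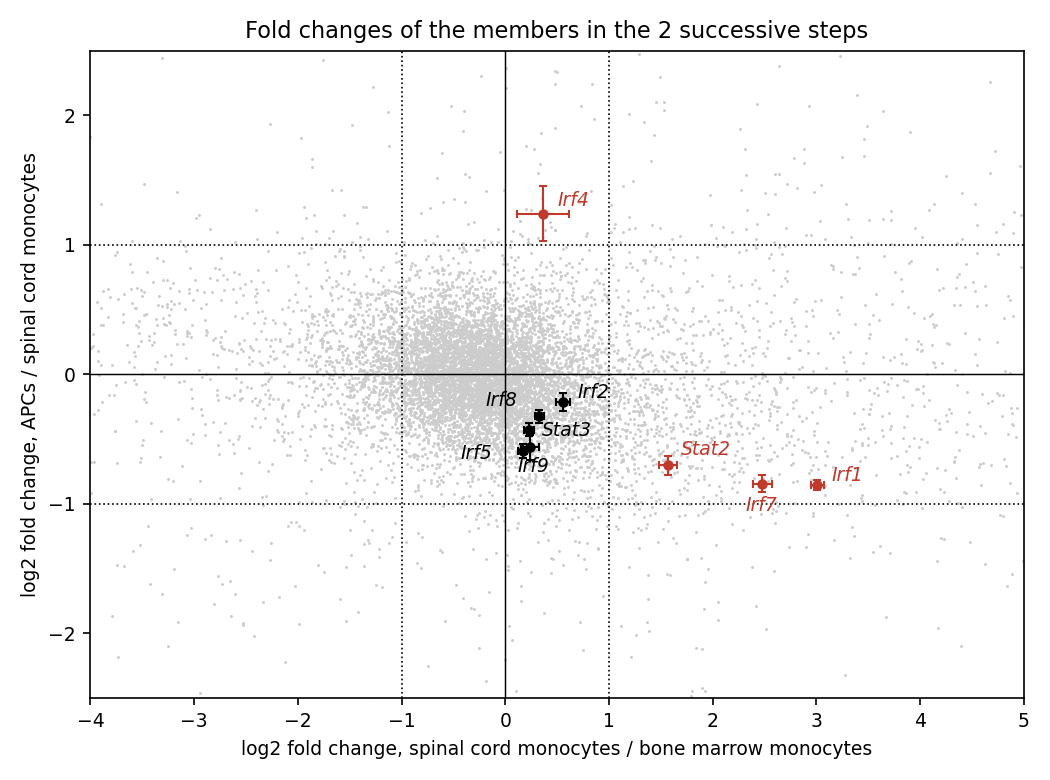
Log2 fold change from bone marrow monocytes to spinal cord monocytes (horizontal axis) against that from spinal cord monocytes to APCs (vertical axis); grey points are active genes, labelled points the 9 members with 98% counting intervals, red where a step was called, dotted lines 2-fold. Irf1, Irf7 and Stat2 lie to the right at 3.01, 2.48 and 1.57 and below 0 on the vertical axis, and Irf4 is the member above the upper dotted line, at 1.24; points beyond the axes are not shown, and both axes share the spinal cord monocyte library.

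Stat2 and Irf9 encode subunits of ISGF3, and their transcripts were not called alike. Stat2 (chr10:128270559-128292849) was at 43.0, 124 and 38.7 TPM (2294, 4881 and 3342 reads). The first step was 1.57 (1.49 to 1.66) and was called. Irf9 (chr14:55603571-55610030) was at 71.9, 67.0 and 47.1 TPM (3365, 2839 and 2139 reads), with steps of 0.24 (0.15 to 0.32; -0.10 from TPM) and -0.56 (-0.66 to -0.47). In the first step Stat2 was thus called higher and Irf9, whose interval lay within 2-fold, was not. The ratio of Stat2 to Irf9 in TPM was 0.598, 1.86 and 0.822, and from reads alone it was 0.682, 1.72 and 1.56. Whether Stat2 exceeded Irf9 in APCs thus depended on effective length.

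The second step of Stat2 depended on how its transcripts were counted. From reads it was -0.70 (-0.78 to -0.63), not called, and from reads divided by effective length it was -1.60 (-1.68 to -1.53), called lower. The effective length of Stat2 was 2497 and 2026 bases in the monocyte libraries and 4144 in the APC library. In GENCODE M21 the gene has 2 protein-coding transcripts of 4394 and 4397 bases and 6 retained-intron transcripts of 459 to 1873 bases. The mean length in the APC library was that of the coding transcripts. In the monocyte libraries the mean length is only reached if coding transcripts make up between 34.8% and 58.3% of the level in the bone marrow library and between 16.8% and 46.7% in the other. With these transcripts taken for those of vM22, the level of coding Stat2 transcripts is at 15.0 to 25.1 TPM in the bone marrow library, at 20.9 to 58.0 TPM in the spinal cord monocyte library and at 38.7 TPM in the APC library. On that scale, which was chosen after the values were seen, the first step may lie anywhere between -0.27 and 1.95 and the second between -0.59 and 0.89. If the other transcripts had 1 mean length in both monocyte libraries, the first step would be between 0.48 and 1.21. The direction of Stat2 between spinal cord monocytes and APCs was therefore not settled by these values. The coding level in APCs lay above the bone marrow range at both ends, by 0.63 and 1.37. However, in the APC library, with its other transcript set, the mean length places 100% of the level on coding transcripts. Reads given to retained-intron transcripts in a monocyte library may count as coding there, so these 2 values cannot decide a direction between APCs and bone marrow monocytes either. From all transcripts the change between these 2 libraries was 0.87 (0.78 to 0.96) by reads and -0.15 by TPM.

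**Figure D3:**
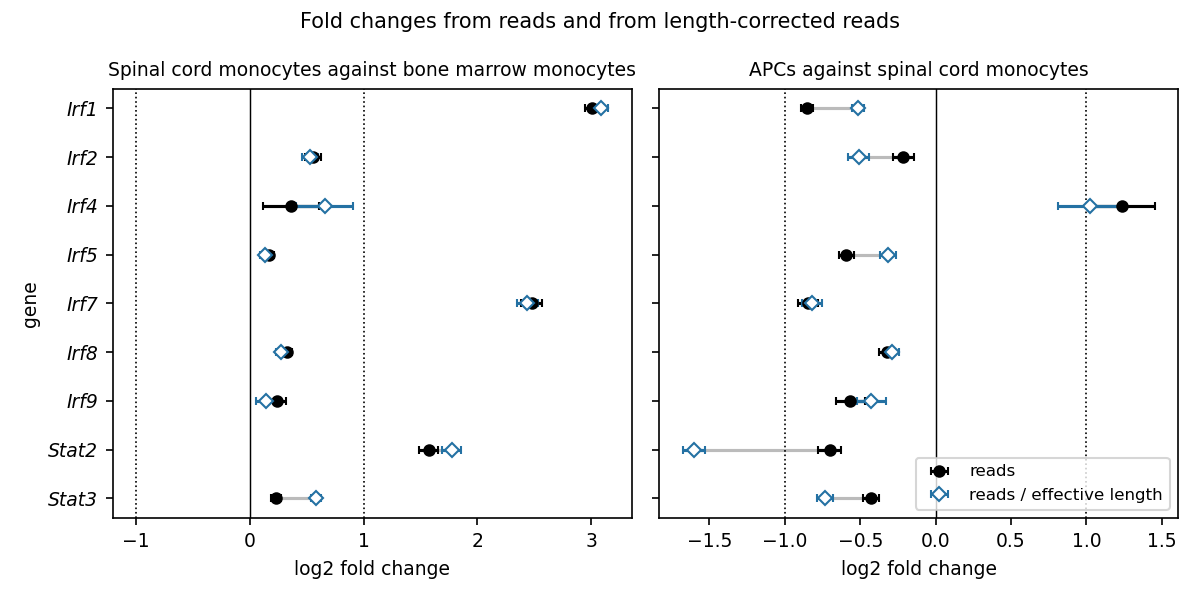
Log2 fold changes of the 9 members from reads (filled circles) and from reads divided by effective length (open diamonds), with 98% counting intervals, for spinal cord monocytes against bone marrow monocytes (left) and APCs against spinal cord monocytes (right); dotted lines mark 2-fold. On the left Irf1, Irf7 and Stat2 stay beyond 2-fold on both scales, whereas on the right Stat2 moves from -0.70 to -1.60 and the interval of Irf4 reaches below the 2-fold line.

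Irf7 and Irf5 encode the factors that Toll-like receptors and cytosolic RNA or DNA sensors activate, IRF7 being known for the induction of interferon alpha and IRF5 for that of inflammatory cytokines. Irf7 (chr7:141262706-141266481, minus strand) was at 48.8, 224 and 120 TPM (1652, 6590 and 4092 reads). The first step was 2.48 (2.39 to 2.57), a 5.57-fold increase. The second was -0.84 (-0.91 to -0.78) and was not called. With length correction the values were 2.44 and -0.82, so they depended little on effective length. Irf5 (chr6:29526625-29541871), by contrast, started as the most abundant member, at 317 TPM in bone marrow monocytes, and was at 294 and 223 TPM in the spinal cord libraries (12808, 10297 and 7609 reads). Its steps were 0.17 (0.12 to 0.21) and -0.59 (-0.64 to -0.54), or 0.13 and -0.32 with length correction, and the first was -0.02 when scaled by total reads and -0.11 from TPM. The ratio of Irf7 to Irf9 in TPM was 0.678, 3.34 and 2.54 in the 3 libraries.

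Of the 21 sensors, adaptors and kinases listed upstream of IRF5 and IRF7, all were active, and 7 were called higher and 0 lower in spinal cord monocytes (Tlr3, Tlr4, Traf3, Traf6, Ikbke, Ddx58 and Ifih1), with a list median of 0.17 beside -0.15 for all active genes. Ddx58, the RNA sensor RIG-I, was at 19.6, 51.0 and 22.4 TPM, and Tlr3, the receptor for double-stranded RNA, at 1.64, 6.62 and 12.7 TPM. Unc93b1, which carries endosomal Toll-like receptors to their compartment, was the most abundant at 438, 403 and 448 TPM. Towards APCs 0 of 21 were called in either direction (list median -0.34), whereas with length correction 1 was called lower. The interferons themselves were near the limit of detection, apart from Ifng. Ifnb1 had 1, 20 and 6 reads (0.0947, 2.16 and 0.573 TPM), and Ifna4 had 0, 1 and 1. Ifng had 0, 129 and 443 reads, or 7.14 and 22.2 TPM in the spinal cord libraries, and it was called higher in both steps, at least 60.1-fold in the first when 3 reads are taken for the bone marrow library. The T cell markers Trac and Cd4, also at 0 reads in bone marrow monocytes, were at 19.2 and 5.27 TPM in cord monocytes and at 29.1 and 10.5 TPM in APCs, and 8 of 8 active T cell markers were called higher in the first step, 0 in the later one. In bone marrow monocytes 0 T cell markers were over 3 TPM, so these 8 passed the filter only through the spinal cord library. The part of T cells in the level of Ifng was not tested. Of the interferon receptors, 5 of 6 were active and 1 was called: Ifngr1 was at 363, 130 and 129 TPM, lower in the first step by -1.20 (-1.26 to -1.15).

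Irf8 and Irf4 encode the IRFs that bind DNA with PU.1 and act in myeloid and dendritic cell differentiation. Irf8 (chr8:120736358-120756694) was nearly level: it was at 222, 227 and 176 TPM (11837, 10634 and 9459 reads). The steps were 0.33 (0.28 to 0.37) and -0.33 (-0.37 to -0.28), and from bone marrow monocytes to APCs the change was 0.00 (-0.04 to 0.05), or -0.34 from TPM. A protein-coding model on the same strand, Gm20388, spans the whole of Irf8 over 20337 bases and was given 1360, 490 and 595 reads, so the division of reads between them adds an uncertainty that the interval does not hold. Spi1, which encodes PU.1, was at 583, 448 and 446 TPM, with steps of 0.04 and -0.16. Batf2 and Batf3, whose products also pair with IRF4 and IRF8, were called higher in the first step, Batf2 from 3.13 to 74.4 TPM and Batf3 from 2.74 to 11.7 TPM, and were at 41.6 and 6.34 TPM in APCs. The list of IRF binding partners is wider than IRF4 and IRF8, and also holds Irf2bp1, Irf2bp2 and Irf2bpl, named after IRF2. Of its 8 active genes, 3 were called higher in spinal cord monocytes (Batf2, Batf3 and Irf2bp2) and 1 lower (Ikzf1). Towards APCs 0 were called. Batf, at 39.5, 32.6 and 32.2 TPM, was not called in either step.

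Irf4 (chr13:30749226-30766976) was the least abundant member and the only one called in the second step. It was at 4.23, 5.63 and 10.8 TPM (375, 345 and 908 reads), so the APC library was the highest. The 95% intervals, 3.82 to 4.68, 5.07 to 6.26 and 10.1 to 11.6 TPM, did not overlap, but they rest on effective lengths of 4153, 3160 and 4023 bases. The first step was 0.36 (0.11 to 0.61), or 0.18 (-0.07 to 0.43) when scaled by total reads, so a difference between the monocyte libraries depended on the scale. The second was 1.24 (1.03 to 1.45), a 2.36-fold increase. This call rested on a small margin: with length correction the second step was 1.02 (0.81 to 1.24) and was not called, while the change from bone marrow monocytes to APCs, 1.60 (1.40 to 1.81), was called on both scales. Against Irf8, whose product also pairs with PU.1, Irf4 stood at 0.019 and 0.0248 of the level in the monocyte libraries and at 0.0616 (95% interval 0.0576 to 0.0660) in APCs. Irf8 thus remained far more abundant than Irf4 in every library, although the ratio was highest in APCs. Markers of other cells were also called in the second step. Among them were those of microglia, of which 8 of 8 were called higher (157 to 418 TPM in sum), or 7 with length correction. Of the dendritic cell markers 2 of 5 active were called higher (21.3 to 28.3 TPM in sum). Of these, Zbtb46 went from 0.496 to 3.37 TPM and Itgae from 0.637 to 3.24 TPM. Clec9a and Flt3 were also higher, without a call. Batf3 went the other way, from 11.7 to 6.34 TPM (-0.69, -1.21 to -0.19), and was not called either. In bone marrow monocytes the microglia markers Sall1 and Slc2a5 were at 0 reads. Of the CNS-associated macrophage markers 1 of 3 active was called higher in APCs (Mrc1, 6.59 to 17.9 TPM), with sums of 36.8 and 51.1 TPM. Of the plasmacytoid dendritic cell markers 2 of 4 were (Cox6a2 and Siglech, the latter also listed for microglia), with sums of 57.5 and 103 TPM and Klk1 at 0 reads. The T cell sum was 80.8 and 120 TPM with 0 of 8 called, and the B cell sum was 37.2 and 71.4 TPM with Cd22 called higher. Of 9 active markers of neutrophils and granulocyte precursors, Ngp (24.3 to 157 TPM) and Ltf (9.76 to 34.1 TPM) were called higher and Elane and Prtn3 lower, whereas with length correction 1 was called lower. The part of these cells in the level of Irf4 was not tested.

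Stat3 (chr11:100885098-100939540, minus strand) was at 125, 159 and 90.0 TPM (10716, 9000 and 7462 reads). Its steps were 0.23 (0.18 to 0.28) and -0.43 (-0.48 to -0.37), or 0.58 and -0.74 with length correction, inside 2-fold on both scales. The effective length of Stat3 was 4000, 2927 and 3977 bases. While Stat3 itself was not called, many genes of its pathway were in the first step. Of the 7 active ligands that signal through STAT3, 6 were called higher, with a list median of 6.21. Only 3 of these ligands were over 3 TPM in bone marrow monocytes, and the others passed the filter only through the spinal cord library. Osm, which encodes oncostatin M, was at 14.8, 830 and 401 TPM, and Il6 at 0.265, 57.5 and 32.0 TPM. The study had reported both as increased in these spinal cord monocytes, so the list is not independent evidence of its direction. Il10 had 0 reads in bone marrow monocytes and was at 9.54 and 5.11 TPM in the spinal cord libraries. Receptors went both ways: of 8 active, 3 were called higher and 3 lower, or 2 and 3 with length correction. Among them were Il21r, from 1.66 to 63.3 TPM, and Il6ra, the IL-6 receptor alpha chain, from 209 to 57.5 TPM. In the second step 0 of 7 ligands and 0 of 8 receptors were called. Of 14 JAK kinases and STAT inhibitors, 7 were called higher in the first step and 1 lower (Pias3, a call lost with length correction). In the second step 0 were called higher and 1 lower (Usp18, also lost with length correction). Socs3, the inhibitor best known for acting on STAT3 signalling, was at 27.8, 909 and 772 TPM, Socs1 at 0.519, 22.8 and 11.5 TPM, and Jak2 at 42.7, 139 and 112 TPM.

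Other genes of both families showed other patterns. Stat4, which carries IL-12 signals and is known from T and natural killer cells, was at 4.43, 2.75 and 10.5 TPM (246, 122 and 576 reads), with a called second step of 2.08 (1.75 to 2.42), beside the T cell sums given above, whose part was not tested. Stat5b, which carries growth factor and cytokine signals, was at 58.4, 19.3 and 16.5 TPM and was called lower in the first step, at -1.24 (-1.33 to -1.15). Its neighbour Stat5a was at 28.1, 12.9 and 16.9 TPM, with a first step of -0.87 (-1.02 to -0.73). Irf3, the partner of IRF7 downstream of the nucleic acid sensors, was at 42.8, 30.5 and 25.6 TPM, and Stat6, which carries IL-4 signals, at 152, 94.7 and 85.2 TPM, without a call in any comparison.

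Genes known to be induced by these factors were described as lists, written with earlier results of these libraries known. The ISGF3 targets, antiviral genes of type I interferon signalling, were mostly higher in spinal cord monocytes: 22 of 24 were called higher and 0 lower, with a median log2 fold change of 2.54 beside -0.15 for all active genes. Towards APCs 11 of 24 were called lower and 0 higher, with a median of -1.11 beside -0.04, and with length correction 8 were called lower. Isg15, a ubiquitin-like modifier, was at 25.6, 517 and 185 TPM, with steps of 4.63 (4.41 to 4.85) and -1.46 (-1.56 to -1.37). Rsad2, which encodes viperin, was at 3.11, 79.3 and 29.8 TPM, and Oasl1 at 3.53, 84.7 and 24.4 TPM, both called in each step. These 3 genes thus had the same order over the libraries as Irf7, lowest in bone marrow and highest in spinal cord monocytes.

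The targets of IRF1 and interferon gamma were also higher in spinal cord monocytes. There 18 of 21 were called higher and 0 lower (median 2.78), or 16 higher with length correction. But 1 of 21 was called lower in APCs (median -0.59). That gene was Cxcl10, a chemokine for T cells, at 10.1, 1423 and 444 TPM. Gbp2, a guanylate-binding protein, was at 44.5, 1081 and 585 TPM. B2m, the light chain of class I molecules, was at 3478, 10747 and 14609 TPM, and Nos2, the inducible nitric oxide synthase, at 0.0952, 276 and 254 TPM. The counts of the 2 lists called lower in the second step were thus 11 of 24 and 1 of 21, or 8 and 2 with length correction, and a difference between them was not tested.

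**Figure D4:**
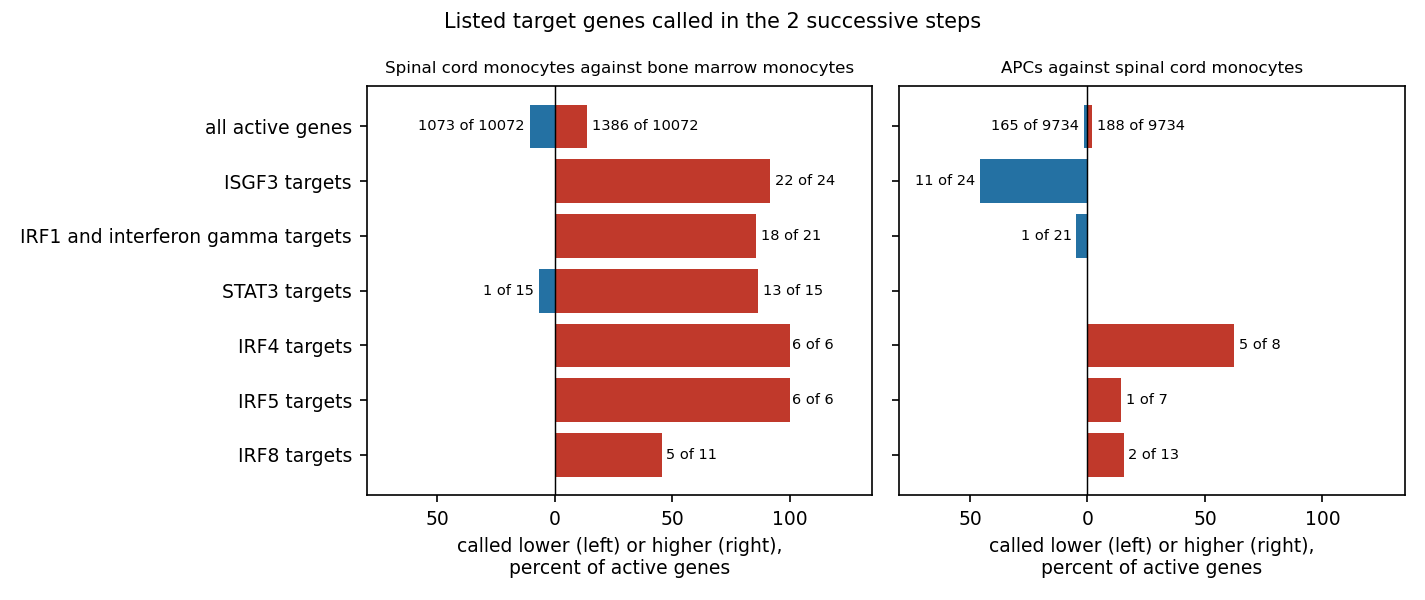
Percent of the active genes of the 6 target lists called higher (red, to the right) or lower (blue, to the left) in spinal cord monocytes against bone marrow monocytes (left panel) and in APCs against spinal cord monocytes (right panel), with the counts beside the bars and all active genes as the first bar. Each of the 6 target lists drawn has more genes called higher than lower on the left, and on the right the ISGF3 targets lie on the lower side with 11 of 24 and the IRF4 targets on the higher side with 5 of 8. In bone marrow monocytes 0 listed IRF4 targets and 2 listed IRF5 targets were over 3 TPM.

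Of the listed IRF4 targets, 6 of 6 active genes were called higher in the first step, with a median of 5.99, or 5.66 with the 2 genes at 0 reads set at their lower bound. In bone marrow monocytes 0 of the listed genes were over 3 TPM. All 6 thus passed the filter only through the spinal cord library, which largely fixed this count and median in advance. In the second step 5 of 8 were called higher (Ccl17, Ccl22, Ccr7, Cd209a and Mgl2) and 0 lower, with a median of 3.40. Ccl22, a ligand of CCR4, was at 0.167, 4.76 and 233 TPM, and Ccr7, the receptor that guides dendritic cells to lymph nodes, at 0.0272, 3.46 and 99.8 TPM. Ccl17, the other CCR4 ligand, had 0 reads in the bone marrow library, and it was at 25.5 and 390 TPM in the spinal cord libraries, a second step of 3.97 (3.67 to 4.28). Ccl17, Ccl22 and Ccr7 are among the genes the study named from these libraries, so the list is not independent evidence of its direction. The step of Irf4 itself, 1.24, was smaller than those of all 5.

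Of the IRF5 targets, 6 of 6 active genes were called higher in the first step (median 7.07), with Il1b at 6.37, 3821 and 2899 TPM and Tnf at 11.5, 385 and 281 TPM, although Irf5 itself was not called. Only 2 of the listed genes were over 3 TPM in bone marrow monocytes. The others passed the filter only through the spinal cord library, which in part fixed this count in advance. Towards APCs 1 of 7 was called higher, namely Il12b, a subunit of IL-12 and IL-23, with 0, 29 and 427 reads. Of the IRF8 targets, of which Irf4 is itself 1, 5 of 11 active genes were called higher in the first step (median 0.36), or 4 with length correction. In the second step 2 of 13 were (median 0.03), namely Il12b and Irf4, or 1 with length correction. Ctss, the protease cathepsin S, was at 2097, 6079 and 10133 TPM, and Cybb, a subunit of the phagocyte oxidase, at 1425, 657 and 579 TPM. Of the STAT3 targets, 13 of 15 were called higher and 1 lower in the first step (median 2.66). In the second step 0 of 15 were called (median -0.45). Among these, Junb was at 345, 1738 and 1727 TPM and Pim1, a survival kinase, at 217, 1242 and 704 TPM. In the first step the target lists of IRF5 and STAT3 thus held many called genes, while neither factor's own transcript was called. Il1b, Tnf, Il6 and Ccl5 of the IRF5 list are among the genes the study reported as increased in spinal cord monocytes. Both lists were written with earlier results of these libraries known, so their counts are not independent evidence of a direction.

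The genes nearest to each member in pattern were sought among 8203 genes with over 10 TPM in at least 1 library, by the distance between the log2 fold changes of the 2 successive steps over 3 libraries. Nearest to Irf1 were Igtp, an interferon-inducible GTPase (2.95 and -0.82), and Tes (3.09 and -0.86). Nearest to Irf7 were Trim13 (2.45 and -0.83) and Nlrc5, a transactivator of class I genes (2.48 and -0.81). Nearest to Stat2 were Nt5dc3 and Tmem251, to Irf4 Hmgn1 and Rpl27a, and to Irf2 Mef2a and Ube2j2. For Irf5, Irf8, Irf9 and Stat3, they were Gabarapl2 and Pak1ip1, Golph3 and Mettl6, Med28 and A630001G21Rik, and Atp5l and B9d2. With length correction none of these 18 genes was again among the 2 nearest, and those of Irf7, for instance, were Nod2 and Klf6. With 3 libraries such nearness describes little more than the size of 2 fold changes.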

How the data were processed

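RNA of each population was sequenced as 1 pooled library. The authors ran Salmon 0.14.1 (per the labels, on mm10) with GENCODE vM22 and deposited TPM values and estimated counts per gene, with effective lengths. The estimated counts as deposited are not normalized; they were rounded to whole reads. Whether strand was used in the estimation is not given in the sources used here. The 22238 genes in all 3 libraries were compared, with symbols and coordinates from GENCODE M21 (GRCm38), where 99.0% of them have the same identifier and version.

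Fold changes followed the study's GFold definition, computed anew: gamma posteriors of reads plus 1, median-of-ratios size factors over the 3 libraries, and percentiles 1 and 99. On simulated libraries of spinal cord and bone marrow monocytes (10072 genes), 100 of 100 genes changed 8-fold and 99 of 100 changed 4-fold were called, and 0 of 9872 unchanged genes. For APCs against spinal cord monocytes (9734 genes) these counts were 99, 99 and 0 of 9534. The simulated counts held Poisson counting error only, without a spread between libraries, so they cannot show how often such a spread would give a false call. TPM intervals are 95% Wilson intervals. Alternatives included TMM factors (edgeR 4.0.16), total reads, length-corrected reads, an assumed spread between libraries, other thresholds and pseudocounts of 1 and 0.1. Analyses used Python 3.11.15, scipy 1.17.1 and R 4.3.3.

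The genes named are all members, other IRF and STAT genes (some genes that the rule takes are not reported here), of each list up to 3 with the highest TPM and up to 3 with the greatest change in a step, and the 2 genes nearest to each member; other list genes are named where they make up a count. The members and lists were chosen with earlier results of these data known.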

Additional observations from a re-analysis of the deposited data

How the results depend on the processing

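Calls of members were sensitive to an assumed spread between libraries, which single libraries cannot measure. With a coefficient of variation of 0.4, the members called in spinal cord monocytes against bone marrow monocytes went from 3 to 1 (Irf1) and the list genes called from 136 to 68. In APCs against bone marrow monocytes, the members went from 3 to 1 with 0.2 and to 0 with 0.4, and the list genes from 131 to 70 with 0.4. In APCs against spinal cord monocytes, the 1 member called, Irf4, was lost with 0.2, with 0.4 and with the outer 0.1% of the posterior at each end in place of 1%, which left 0, and the list genes went from 41 to 14 and 5. With length-corrected reads 1 member was called in that step, but it was Stat2, lower, in place of Irf4; log2 ratios of TPM with pseudocounts of 1 and 0.1 gave Stat2 -1.66 and -1.68 and Irf4 0.83 and 0.93. Bounds on coding transcripts of Stat2, added after the values were seen, reach from -0.27 to 1.95 in spinal cord against bone marrow monocytes, so that its increase there could reverse. Of the log2 ratios of members under the alternatives, 347 stayed on their side of the threshold, 14 lost the call, 4 gained it and 1, the bound of Stat2, reversed a call. Within these same 366 ratios, 18 that were not called in the main setting changed sign, for Irf2, Irf5, Irf8, Irf9, Stat2 and Stat3. Total reads as the scale moved the median of all active genes by -0.18 in the first step. With all genes of both monocyte libraries, the same 3 members were called in that step. Irf1 was then at 2.76 and Stat2 at 1.32, while Irf5, Irf9 and Stat3 were at -0.08, -0.01 and -0.02. TPM as deposited moved the 18 monocyte values of members by a constant factor, because common genes hold 84.9% and 85.3% of those libraries. No paired analysis was possible because each population is 1 library, and no replicate could be left out. Irf4, with 345 to 908 reads, is the member whose interval depth limits most.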
